A study of Triticum aestivum with 4 samples.

Results

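AGA.1, a subunit gene of ADP-glucose pyrophosphorylase, and 1-FEH, a fructan exohydrolase gene, were followed in flag leaves of bread wheat (*Triticum aestivum*). Every probe set annotated with either name as symbol or synonym was taken. This gave 3 of the 61115 probe sets on the Affymetrix wheat array that are not controls. They stand for 2 of the 771 genes that carry a symbol there. AGA.1 (locus symbol LOC543278) has 2 probe sets, called S1 and A1 here after the ends of their names, and 1-FEH (LOC543441, with the further synonym 1-FEHw2) has 1. Both genes were chosen by their differences in intensity under heat in these same arrays, so their values are a description and no test is given for them.

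All plants were of the winter wheat cultivar Yangmai 16, and each of 4 groups was measured on 1 array. PH plants came from heat-primed parents and were themselves heated, and NH plants came from parents that had not been primed and were heated. PC plants came from heat-primed parents and stayed unheated, and NC plants came from parents without priming and stayed unheated. The heat given to PH and NH was 34 °C in daytime and 30 °C at night, against 26 °C and 22 °C for PC and NC, and lasted 6 days, beginning 10 days after anthesis. Primed parents had been held for 2 days at 32 °C in daytime and 28 °C at night when they had 7 leaves and again when they had 9, and then for 7 days at 34 °C and 30 °C, beginning 10 days after anthesis. How many plants or leaves went into an array is not given in the sources used here, and each temperature had its own growth chambers, so chamber and temperature cannot be told apart. With 1 array per group there is no replicate error for any value, and the number of arrays limits the precision.

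Leaves store part of the carbon they fix as starch in the chloroplast, and wheat and related grasses also store fructans, polymers of fructose, in the vacuole. ADP-glucose pyrophosphorylase makes ADP-glucose, the glucose donor for starch, in the first committed step of starch synthesis, and the enzyme is built of large and small subunits. Fructan exohydrolases cut single fructose units from the ends of fructan chains, and those of the 1-FEH type act mainly on the linkages found in inulin.

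Values are deposited probe set intensities on a linear scale. An intensity of 12.3, the median of all probe sets on all arrays, served as the floor for a usable signal, and lower values were set to it ahead of taking log2 differences. A probe set was called changed when its intensity differed at least 2-fold between 2 arrays. The 36 probe sets for added poly-A control RNA had a median ratio of 0.812 for PH over PC and of 1.87 for NH over NC. For the 27 probe sets of the hybridization controls, it was 0.829 and 1.02. For ubiquitin, signal at the 3' end over that at the 5' end, a measure of RNA quality, was 0.992 on PH and 0.929 on NH, against 0.750 on PC and 0.645 on NC. For the sucrose synthase control this ratio was far higher, at 55.1 on PH and 60.2 on NH, against 45.2 on PC and 50.9 on NC. Its 5' signal was below the floor on PC and NC. These measures move with some of the comparisons below, and their part in the results was not tested. Of 5 leaf marker genes (rbcl, PRK, PsbO, PsbP and petC), each taken by its brightest probe set, 5 were above the floor on all 4 arrays. Their summed intensity was 33559 on PH and 25695 on NH, against 43726 on PC and 41386 on NC. The largest share of it is rbcl, near the top of the scale on each array at 15575 to 16875. The log2 differences of the others were -0.98 in PH over PC and -2.21 in NH over NC for PRK, -0.81 and -1.75 for petC, -0.40 and -0.98 for PsbP, and -0.36 and -0.67 for PsbO. The median of the 5 was -0.40 in PH over PC and -0.98 in NH over NC.

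AGA.1 was far dimmer in heated leaves of both seed backgrounds. Its probe set S1 had an intensity of 230 on PH and 117 on NH, against 1128 on PC and 966 on NC. Both heated arrays thus lay well below both unheated ones, with NH lowest and PC highest. The fall was 4.90-fold in progeny of primed plants (PH over PC, log2 difference -2.29) and 8.27-fold in progeny of unprimed plants (NH over NC, -3.05). Over the array, 9.99% of 32454 measured probe sets were 2-fold or more lower in PH than in PC, and 10.5% of 32695 in NH than in NC. A fall at least as large as that of this probe set was seen at 2.46% of measured probe sets in PH over PC and at 1.37% in NH over NC. From 53.6, the 75th percentile of all values, a fall of either size would end below the floor. Many measured probe sets thus could not show such a fall, and the share among brighter ones was not computed. The summed leaf markers were also lower on the heated arrays. By the brightest probe set of each gene, 0 of 5 were 2-fold lower in PH over PC and 2 of 5, PRK and petC, in NH over NC. Dimmer probe sets of these genes could differ. For PsbP, a dimmer probe set had -0.86 in PH over PC and -1.41 in NH over NC. The deepest fall at a dimmer rbcl probe set was -2.25 in PH over PC and -2.68 or lower in NH over NC, while another rbcl probe set had -0.15 and 0.11. The part of the leaf markers in the AGA.1 values was not tested. In a whole leaf, fewer cells that express a gene and less of its RNA per cell cannot be told apart.

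The other AGA.1 probe set, A1, lay near the floor and differed in the same direction under heat. It had 17.2 on PH and 11.3 on NH, against 45.0 on PC and 45.4 on NC. The NH value lies below the floor, so only a bound can be given there. The fall was 2.62-fold in PH over PC (-1.39) and at least 3.70-fold in NH over NC. Falls at least this large were seen at 6.29% and 4.30% of measured probe sets in the same comparisons, among them probe sets too near the floor to show one. The annotation gives both probe sets to the same gene and the same transcript cluster, and no other probe set on the array carries that cluster number. With 1 array per group, whether the probe sets differ in the size of the fall was not tested.

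**Figure D1:**
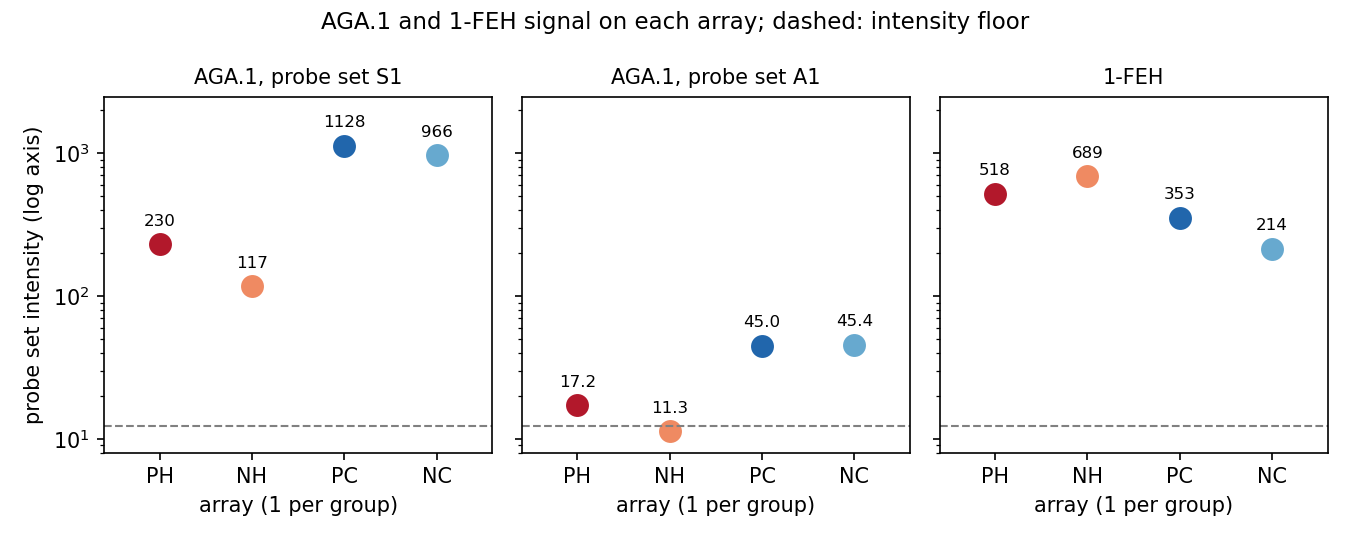
Probe set intensity (vertical axis, logarithmic) of AGA.1 (probe sets S1 and A1) and 1-FEH on the arrays PH, NH, PC and NC, 1 point per array, with the floor of 12.3 as a dashed line. Both AGA.1 probe sets are lowest on the heated arrays, while 1-FEH is lowest on NC (214) and highest on NH (689).

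1-FEH was higher, not lower, on the heated arrays. Its intensity was 518 on PH and 689 on NH, against 353 on PC and 214 on NC. Both heated arrays were above both unheated ones, and the order from high to low was NH, PH, PC and NC. In progeny of unprimed plants it rose 3.22-fold (log2 difference 1.69), where 11.1% of all measured probe sets rose 2-fold or more and 4.27% rose at least as far. In progeny of primed plants PH over PC was 1.47-fold (0.55), below the 2-fold rule; 9.69% of measured probe sets passed it, and 21.4% had a difference at least as large. On the log2 scale the heat difference in primed progeny was 32.8% of that in unprimed progeny for 1-FEH, and 75.2% for probe set S1 of AGA.1.

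The heat comparisons share no array, and most of their calls were shared. Of the 3615 probe sets 2-fold higher in NH over NC, 64.7% were also 2-fold higher in PH over PC, and 1-FEH is among those that were not. Of the 3440 lower in NH over NC, 75% were also lower in PH over PC, and both AGA.1 probe sets are among these.

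**Figure D2:**
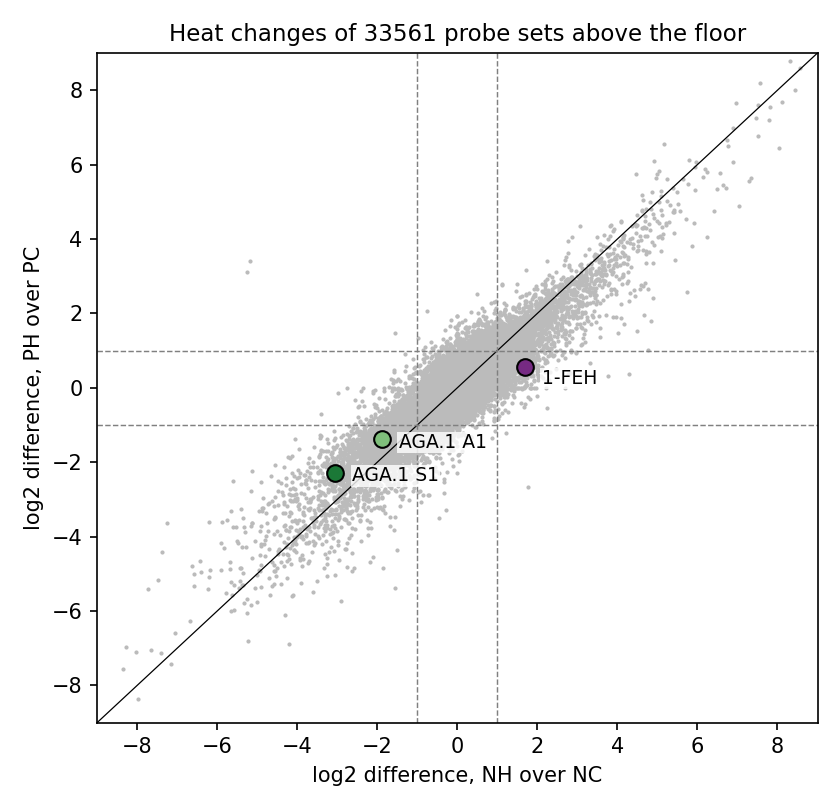
Log2 difference with heat in progeny of primed plants (vertical) and of unprimed plants (horizontal) for the 33561 probe sets above the floor on at least 1 array, with the 2-fold lines dashed and equal change as a solid line. AGA.1 lies past 2-fold in both (for S1, -2.29 in PH over PC and -3.05 in NH over NC), and 1-FEH lies below the line of equal change, at 0.55 in PH over PC and 1.69 in NH over NC.

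Under heat, AGA.1 had more signal and 1-FEH less in progeny of primed than of unprimed plants, by less than 2-fold for S1 and for 1-FEH. For the AGA.1 probe set S1, the values of 230 on PH and 117 on NH differ 1.97-fold (PH over NH, log2 difference 0.98), just short of the rule. Of 31462 measured probe sets, 2.27% passed 2-fold upward in PH over NH, and 2.40% had a difference at least as large as this one. Probe set A1, with 17.2 on PH and a value below the floor on NH, was at least 1.4-fold higher on PH. The 5 leaf marker genes, by their brightest probe sets, were also higher on PH than on NH. Their log2 differences were 1.45 for PRK, 0.98 for petC, 0.61 for PsbP, 0.38 for PsbO and 0.07 for rbcl, with a median of 0.61. The higher AGA.1 signal on PH is thus not particular to AGA.1, and the part of the leaf markers in it was not tested. For 1-FEH, the values of 518 on PH and 689 on NH give a log2 difference of -0.41, and 10.1% of measured probe sets were lower by as much or more; 1.5% were 2-fold or more lower. The median ratio of PH over NH was 0.557 for the poly-A controls and 0.857 for the hybridization controls. Their part in either difference was not tested.

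Without heat, the genes differed in another way. AGA.1 was near equal on both arrays, with 1128 on PC and 966 on NC for S1 (PC over NC, 0.22) and 45.0 on PC and 45.4 on NC for A1 (-0.01). 1-FEH had 353 on PC and 214 on NC, a ratio of 1.65 (0.72). That is below the 2-fold rule, which 0.342% of 31915 measured probe sets passed upward and 0.42% downward, and 1.39% of measured probe sets had a difference as large or larger in the same direction. Over all measured probe sets the median absolute log2 difference of these arrays was 0.16, and 90% of them differed by less than 0.45. The median ratio of PC over NC was 1.30 for the poly-A controls and 1.02 for the hybridization controls. Their part in the 1-FEH value was not tested.

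The weaker heat difference of 1-FEH in primed progeny is thus made up of a higher value on PC than on NC and a lower value on PH than on NH. The difference of the heat changes, PH over PC minus NH over NC, was -1.13 for 1-FEH, past 2-fold; 2.27% of 33561 probe sets passed 2-fold downward and 1.59% had a value this low or lower. For AGA.1 it was 0.76 at S1, under 2-fold, where 2.28% passed upward and 5.0% had a value this high or higher. At A1 it was at least 0.50. Among the leaf markers, by their brightest probe sets, it was 1.23 for PRK and 0.94 for petC, both above S1. It was 0.58 for PsbP, 0.31 for PsbO and 0.01 for rbcl. The part of the leaf markers in the AGA.1 difference was not tested. These differences use the same 4 arrays as the comparisons above, so they are not separate evidence, and they have no error estimate.

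**Figure D3:**
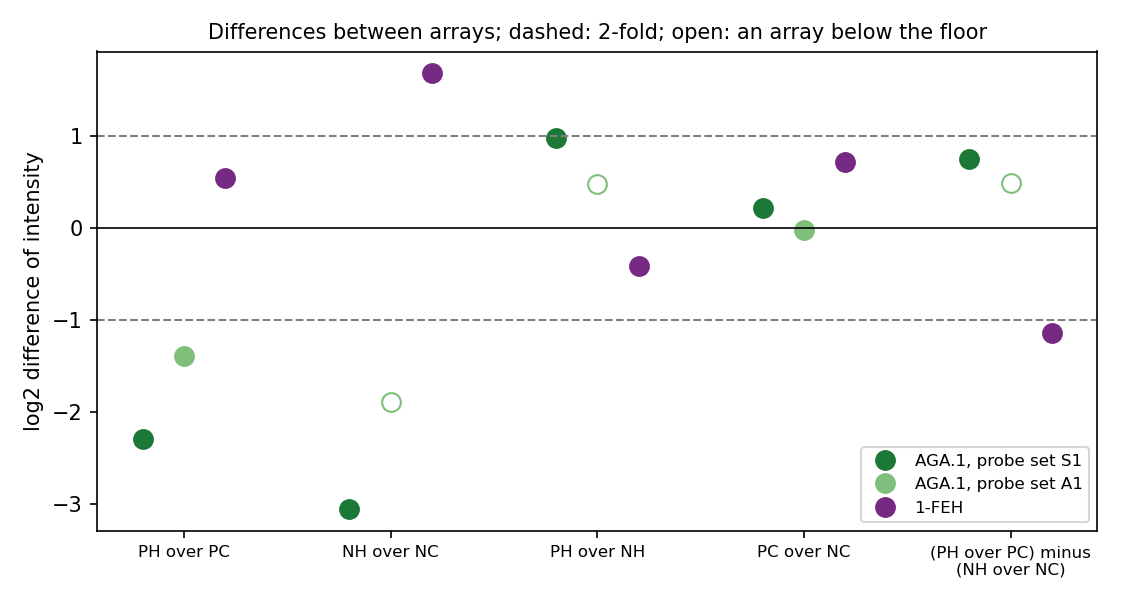
Log2 differences of intensity for both AGA.1 probe sets and 1-FEH in the comparisons PH over PC, NH over NC, PH over NH and PC over NC and, at the right, for the difference between the heat changes, with 2-fold as dashed lines and open circles where an array was below the floor. AGA.1 passes 2-fold downward with heat in both backgrounds, and 1-FEH passes it upward only in NH over NC and downward in the difference of the heat changes (-1.13).

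Few other genes of starch and fructan metabolism can be followed by name, since 1273 of the 61115 probe sets have a gene symbol. The starch synthesis list matched 3 genes. AGP-S, the small subunit of ADP-glucose pyrophosphorylase, had an intensity of 458 on PH and 425 on NH, against 486 on PC and 524 on NC. Its log2 differences were -0.08 for PH over PC and -0.30 for NH over NC, both under 2-fold, and all 4 values lay close together. GBSS, the granule-bound starch synthase that makes amylose, was below the floor on all 4 arrays (5.10 to 7.46), so its response was not measured. Of the 2 measured genes of the list, AGA.1 and AGP-S, 1 fell and 0 rose in each background. That 1 is AGA.1, chosen for its fall, so neither this count nor the median log2 difference of -1.19 in PH over PC and -1.68 in NH over NC says anything about the list. For reference, among all measured genes with a symbol, 17.5% of 601 fell and 11% rose in PH over PC, with a median of -0.14, and 18.3% of 605 fell and 14.5% rose in NH over NC, with a median of -0.07.

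The fructan breakdown list matched 1-FEH and 6-FEH, a fructan exohydrolase that acts on the other type of linkage, found in levan. Of 3 probe sets of 6-FEH, 1 was above the floor, at 15.4 on PH and 16.8 on NH, against 21.8 on PC and 20.2 on NC. Its log2 differences were -0.50 for PH over PC and -0.26 for NH over NC, so the rise of 1-FEH in NH was not seen at 6-FEH, although a fall of 2-fold could not have been seen so near the floor. The lists for starch breakdown, fructan synthesis, and sucrose and hexose metabolism matched 0 genes by symbol or synonym. BMY1, a beta-amylase and so a gene of starch breakdown, was looked up afterwards by its abbreviation and was below the floor on all 4 arrays, with values from 5.99 to 11.3.

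A pair of further genes close to these pathways was added after their values were seen. FBP is fructose bisphosphatase, which makes the fructose 6-phosphate from which starch and sucrose are built. A dimmer FBP probe set was below the floor on all 4 arrays, at 4.19 to 8.57. The brighter FBP probe set had 316 on PH and 112 on NH, against 1557 on PC and 1692 on NC. Its log2 differences of -2.30 in PH over PC and -3.92 in NH over NC are past 2-fold, as are those of AGA.1. FBP is also among the 5 genes picked below for a profile most like that of AGA.1, so this likeness is not separate evidence. Sucrose synthase, which splits sucrose, is present among the quality controls of the array with probe sets for 3 parts of its transcript. The probe set at the 3' end had 1021 on PH and 1163 on NH, against 276 on PC and 298 on NC, and the middle one had 259 on PH and 339 on NH, against 75.3 on PC and 67.8 on NC. Both were thus higher on each heated array than on each unheated one, by 3.70-fold and 3.44-fold in PH over PC and by 3.90-fold and 5.0-fold in NH over NC. The probe set at the 5' end had 18.5 on PH and 19.3 on NH, against 6.11 on PC and 5.86 on NC, which lie below the floor.

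**Figure D4:**
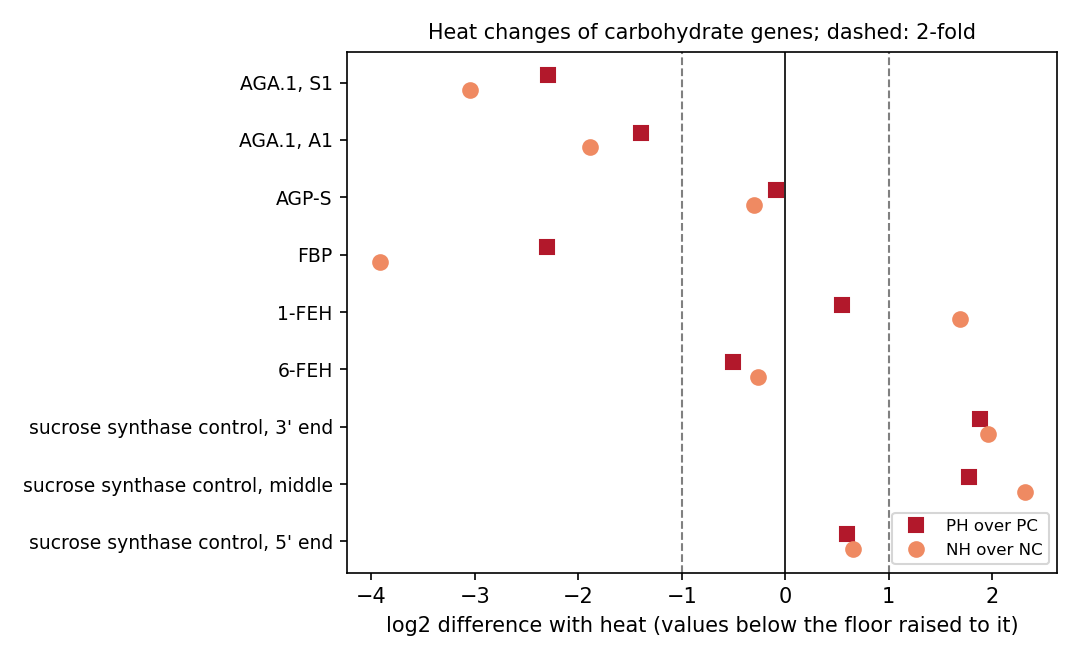
Log2 difference with heat for the measured carbohydrate genes and the sucrose synthase controls, with PH over PC as squares and NH over NC as circles and 2-fold as dashed lines. AGA.1 and FBP lie past 2-fold downward in both backgrounds, the 3' and middle sucrose synthase probe sets lie past it upward in both, AGP-S and 6-FEH lie within 2-fold, and 1-FEH passes it only in NH over NC. FBP is among the 5 genes nearest to AGA.1 in profile.

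Signal from grain and anther tissue was checked with the names on the array. Of 13 grain genes, 7 were below the floor on all 4 arrays, and the summed intensity of all 13 was 674 on PH and 1358 on NH, against 481 on PC and 442 on NC. Most of the excess on NH came from avnla, an avenin-like gene, which stood at 72.9 on PH and 659 on NH, against 9.50 on PC and 11.2 on NC. Most of the sum on the other arrays came from the brightest probe set of avnlb, another avenin-like gene. It had 518 on PH and 571 on NH, against 394 on PC and 342 on NC, which by itself is the array order of 1-FEH. All other probe sets of avnlb were below the floor on all 4 arrays, at 4.36 to 8.18. The serpin gene Serpin-Z2A had 15.1 on PH and 49.9 on NH, against 4.09 on PC and 5.57 on NC, both below the floor. The other measured grain genes lay near the floor on all 4 arrays: the gliadin gene Gli-8 between 9.15 and 16.5, the amylase inhibitor gene WMAI-1 between 16.9 and 19.2, and the low molecular weight glutenin gene LMW-GS between 14.7 and 24.9. Of the 2 anther genes, raftin1a and raftin1b, 1 was above the floor, at 13.4 to 16.8. The grain sum ran in the same order of arrays as 1-FEH, from NH over PH and PC to NC, and its part in the 1-FEH values was not tested.

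The genes with a symbol whose profile over the 4 arrays was most like that of AGA.1 were looked up among 537 genes above the floor on every array, by the Euclidean distance of log2 intensities centred on each gene's own mean. The 5 nearest were LOC542859 (distance 0.29), Pgk-1 (0.31), LOC100125744 (0.40), LOC780585 (0.42) and FBP (0.62). Pgk-1, phosphoglycerate kinase, acts in the Calvin cycle and in glycolysis, depending on the isoform. It had 627 on PH and 292 on NH, against 3085 on PC and 3247 on NC, and so differed from AGA.1 mainly by a deeper log2 difference of -3.47 in NH over NC. LOC542859 followed AGA.1 most closely, with 124 on PH and 77.0 on NH, against 569 on PC and 570 on NC. Each of these 5 genes was, like AGA.1, higher on PH than on NH, by log2 differences of 0.69 to 1.50.

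For 1-FEH, the nearest profiles were those of LOC100037593 (distance 0.18), LOC542858 (0.32), LOC100125700 (0.32), LOC543037 (0.38) and LOC606330 (0.39), none of which has a functional name in the tables used. LOC100037593 had 106 on PH and 129 on NH, against 63.4 on PC and 44.5 on NC, the same order of arrays as 1-FEH. LOC542858 kept that order too, with 432 on PH and 690 on NH, against 271 on PC and 209 on NC. All 5 were higher on PC than on NC, by log2 differences of 0.37 to 1.10, and all 5 had a smaller heat difference in primed than in unprimed progeny. These likenesses rest on 4 arrays, and the genes were picked for them, so they say nothing beyond the resemblance.

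**Figure D5:**
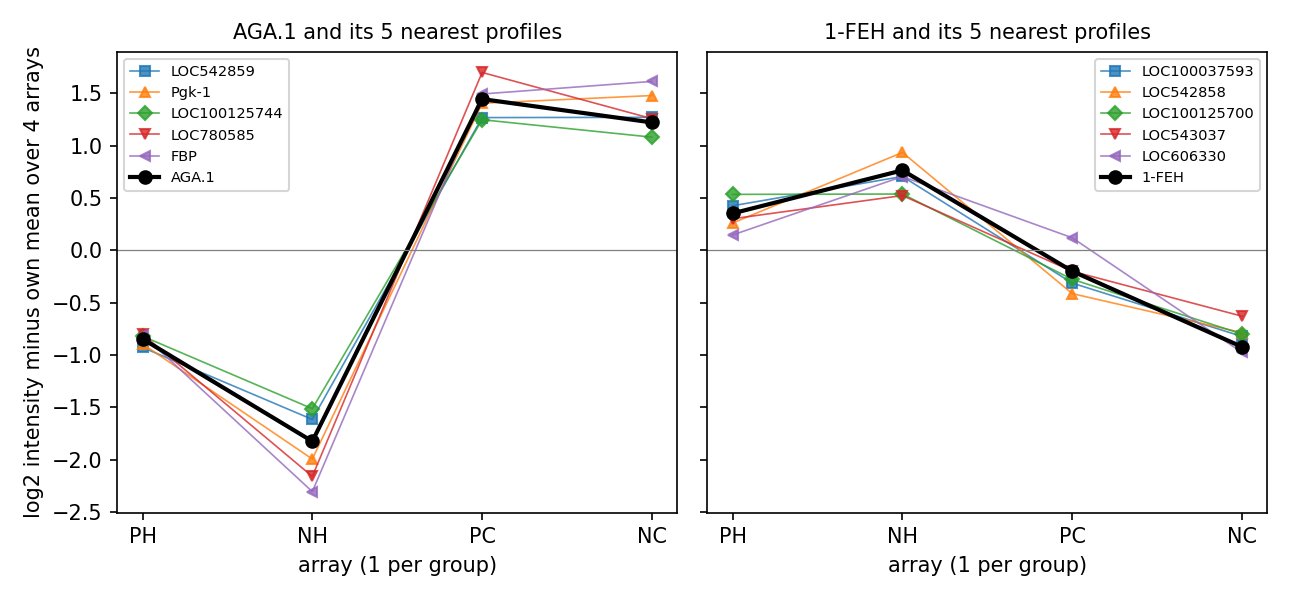
Log2 intensity on PH, NH, PC and NC, centred on each gene's mean over the 4 arrays, for AGA.1 (left, probe set S1) and 1-FEH (right) in black and for their 5 nearest genes with a symbol. The AGA.1 group is lowest on NH and the 1-FEH group is lowest on NC.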

How the data were processed

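Total RNA (6 µg per sample) from flag leaves was made into biotin-labelled cRNA for Affymetrix wheat arrays, per the labels' protocols, although their label field names Cy3. The deposited values are probe set intensity on a linear scale; MAS5 is named per the submitters' processing notes, while version, scaling and detection calls were not given in the sources used here. In each column 3.91% to 3.98% of values share 1 remainder (0.114107, to 6 decimals) when divided by 0.25, the same in all 4 columns, among them 3 of the 4 values of AGA.1 probe set S1; which step made this grid was not tested.

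Without 175 control probe sets, 61115 remained, with column medians of 12.1 to 12.7. Values were kept as deposited, raised to the floor (50th percentile of all values pooled) and compared on the log2 scale. A probe set was measured in a comparison when either array was above the floor. Names came from the platform annotation (1273 probe sets with 1 symbol, 0 with several, 59842 with none) and, for 770 of its 771 genes, from RefSeq's table for IWGSC CS RefSeq v2.1, whose coordinates were not used. Lists were patterns on symbols and synonyms, with a gene represented by its brightest probe set.

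Named were both members, each gene of a carbohydrate list and the 5 nearest profiles per member; BMY1, FBP and sucrose synthase were added later. The members and lists were chosen with earlier results of these data known. Alternatives were scaling to a common median or by quantiles, a lower floor (25th percentile, 4.20) and a higher one (75th, 53.6), adding the floor as a pseudocount, a 3-fold threshold, other choices of probe sets, and rescaling for the nearest profiles. Counting and the search for profiles were tested on simulated data. The work was done in Python 3.11.15 with pandas 2.3.3, numpy 2.4.6 and matplotlib 3.10.9.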

Additional observations from a re-analysis of the deposited data

Results flagged for a closer look

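Only the measured probe sets of AGA.1, 1-FEH, AGP-S and 6-FEH were examined here. Parental priming went with opposite signs of difference at the 2 temperatures for 3 of them, each on 1 array per group. The difference between temperatures was not tested. The share of all measured probe sets with opposite signs was not computed. Their median log2 differences lay near 0, at -0.003 for PH over NH and 0.009 for PC over NC, so the count alone does not set these probe sets apart. 1-FEH had a log2 difference of -0.41 for PH over NH and 0.72 for PC over NC. AGP-S had 0.11 and -0.11, and 6-FEH had -0.13 and 0.11. For these 3 the signs held under both scalings. The AGA.1 probe set A1 had at least 0.48 for PH over NH, with NH below the floor, and -0.01 for PC over NC, which turned to 0.03 when arrays were scaled to a common median, so that opposite signs are not shown for it. Over all measured probe sets the median absolute log2 difference was 0.21 for PH over NH and 0.16 for PC over NC, above the values of AGP-S and 6-FEH.

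The control probe set at the 3' end of sucrose synthase, outside the main measurement, had a ratio of 3.7 for PH over PC and of 3.9 for NH over NC.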

How the results depend on the processing

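Of 72 log2 differences of the 3 probe sets recomputed under an alternative, 71 stayed on their side of 2-fold, with the same sign where they were past it. The exception was the AGA.1 probe set A1 in PH over PC, at -0.96 with a pseudocount. That probe set has no value with the floor at the 75th percentile, since all its intensities lie below it, and its PC over NC difference ranged from -0.04 to 0.03. The AGA.1 probe set S1 ranged from -2.29 to -1.84 in PH over PC and from -3.09 to -2.47 in NH over NC, the weaker ends being the mean over both probe sets, and from 0.91 to 0.99 in PH over NH, below 2-fold under each alternative. 1-FEH ranged from 0.53 to 0.58 in PH over PC, from 1.60 to 1.76 in NH over NC, and from -1.18 to -1.07 in the difference between heat changes. After either scaling, 24 of 24 recomputed levels lay within 10% of the deposited ones. When the probe sets of a gene were averaged, the starch synthesis median in PH over PC was -0.96. The nearest profiles were the same 5 for each gene under both scalings, chosen after seeing the data.

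Counts over the array moved more, here as probe sets higher and lower. With the floor at the 75th percentile they were 1958 and 2071 in PH over PC, 2388 and 2176 in NH over NC, 330 and 268 in PH over NH, 47 and 63 in PC over NC, and 339 and 399 for the difference between heat changes. With a pseudocount they were 379 and 314 in PH over NH, 45 and 86 in PC over NC, and 419 and 459 for the difference. At 3-fold they were 1257 and 1651, 1580 and 1916, 100 and 133, 7 and 51, and 139 and 166 in the order of the first list. Fewer probe sets pass a higher floor or threshold by construction. No paired analysis was possible because each group has 1 array. Leaving out a replicate was not possible for the same reason.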
